A study of Mus musculus with 26 samples.

Results

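The cells examined here are the late cells of a mouse chemical reprogramming course run without BrdU, set against the embryonic fibroblasts from which such courses start. BrdU is a thymidine analogue that is built into newly made DNA. The late cells were chosen by their labels as the libraries of days 30, 36 and 40 of that course (3 libraries), and the starting cells are the single MEF library of day 0 (mouse embryonic fibroblasts), giving 4 of the 26 libraries in the series. The other libraries are days 6, 12, 18 and 22 of the same course (4 libraries), the course with all chemicals on the same 7 days (7 libraries), a course lacking Chir, which blocks the kinase GSK3 (5 libraries), and established CiPSC, chemically induced pluripotent cells (6 libraries). Strain, embryonic age and any further chemicals of the course are not given in the sources used here, and MEF received none of the course. Each day is 1 library, nothing in the labels says that days came from separate cultures, and p-values therefore measure the spread between 3 successive days of what may be 1 culture. MEF has no repeat, so its own variation is assumed to equal that between the late days.

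Fibroblasts are the collagen-producing cells of connective tissue, and primary MEF cultures are mixed, dividing cell populations of fetal origin. They are marked by mesenchymal transcription factors such as Prrx1 and Twist1, by surface proteins such as Thy1, and by matrix proteins. When reprogramming stalls, cells can keep or regain a fibroblast profile, while time in culture and exposure to small molecules also leave traces in gene expression.

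Values are the authors' quantile-normalized scores (see the processing account for their making). All libraries share 1 distribution of scores, with totals between 4143561 and 4162600, a median of 76 or 77 and a maximum of 21988 held by 10 genes in each library. Sequencing depth is unknown, and a gene at 21988 is at a ceiling. A log2 difference below is the mean of log2(score + 1) over the 3 late days minus that of MEF, with its moderated standard error from limma. "Called" means a limma adjusted p (Benjamini-Hochberg) under 0.05 over 15671 genes, and no log2 difference is given for a gene listed at 0 throughout either group.

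In rank order of expression the late cells stood close to MEF. Across 16663 genes with a mean score of at least 1 their Spearman correlation with MEF was 0.909, 0.900 and 0.910 on days 30, 36 and 40. Day 22 of the same course had 0.861, day 6 had 0.906, and days 30 to 40 with all chemicals had 0.811 to 0.814. The share of genes within 2-fold of MEF was 74.4%, 71.6% and 75.0% on the 3 late days, against 67.1% on day 22 and 56.7% to 59.4% on the late days with all chemicals. The late days resembled each other more than MEF, with correlations of 0.957 to 0.975 and 81.8% to 88.3% of genes within 2-fold. These are descriptions that share the MEF library, and genes are not independent.

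**Figure D1:**
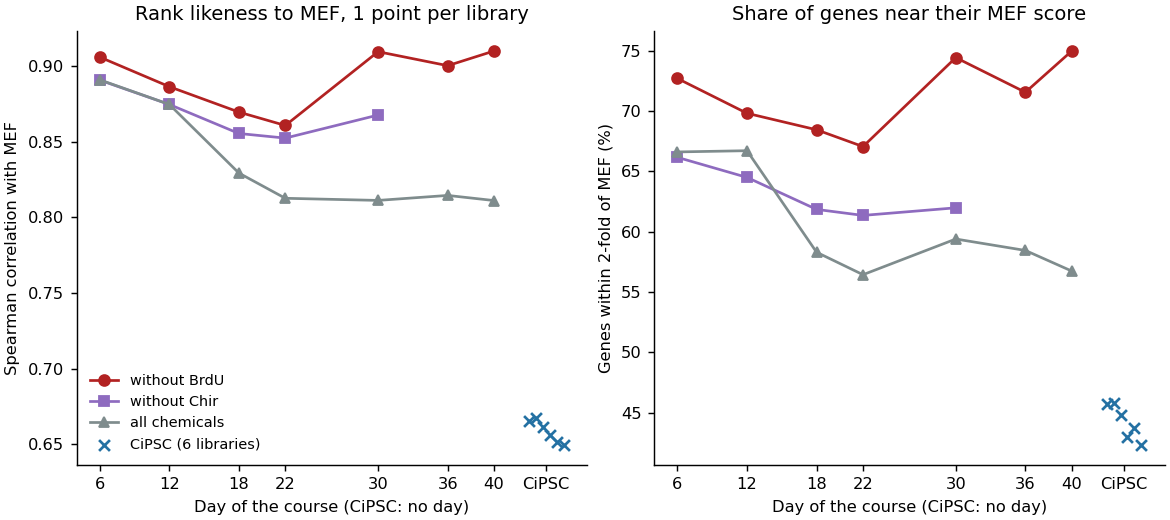
Spearman correlation with MEF (left) and percentage of genes within 2-fold of MEF (right) for each library, by day of the course, with CiPSC at the right end. The 3 late libraries without BrdU sit at 0.900 to 0.910, above day 22 of their course (0.861) and above the late days with all chemicals (0.811 to 0.814).

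The markers of the label were mostly present. Col1a1, Col1a2 and Col3a1, the main fibrillar collagen chains, and the matrix protein fibronectin (Fn1) were at the ceiling of 21988 on all 3 late days and in MEF. Prrx1 had 1517, 1412 and 1496 on days 30, 36 and 40, against 2220 in MEF. Twist1 had 526, 498 and 529, against 286 in MEF. Neither was called (limma adjusted p = 0.0991 for Prrx1 and 0.0610 for Twist1). Pdgfrb, a growth factor receptor of mesenchymal cells, had 946, 840 and 938, against 1512 in MEF. Pluripotency factors were low in both groups, with Pou5f1 at 0, 6 and 16 in late cells and 2 in MEF, Nanog at 4, 0 and 0 against 7, and Sox2 at 9, 4 and 10 against 3. Thy1 went against the label, as described below.

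Of 15671 genes tested, 607 were called (3.87%), 350 higher in late cells (2.23%) and 257 lower (1.64%). Every called gene differed from MEF by at least 2-fold on each late day. By that fold rule alone, with no test, 1321 genes were higher (8.43%) and 1137 lower (7.26%), so most 2-fold differences were not called. The calls lean on small spreads: 139 of the 257 lower genes were listed at 0 on all 3 late days, and so had no spread of their own. Of the 350 higher genes 132 were listed at 0 in MEF. That bears on the size of their difference, since the single MEF library adds nothing to the spread. Without day 30, 308 genes were called, 59 higher and 249 lower. Without day 36 or without day 40 none was called by limma, although 3064 and 2067 genes had an unadjusted p under 0.05, so every call named below from this fit needs both of those days. A pseudocount of 5 turned the balance to 273 higher and 304 lower. Pooling the spread with that of days 6 to 22 gave 1001 calls, and pooling it with late full-course and CiPSC libraries gave 1186.

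**Figure D2:**
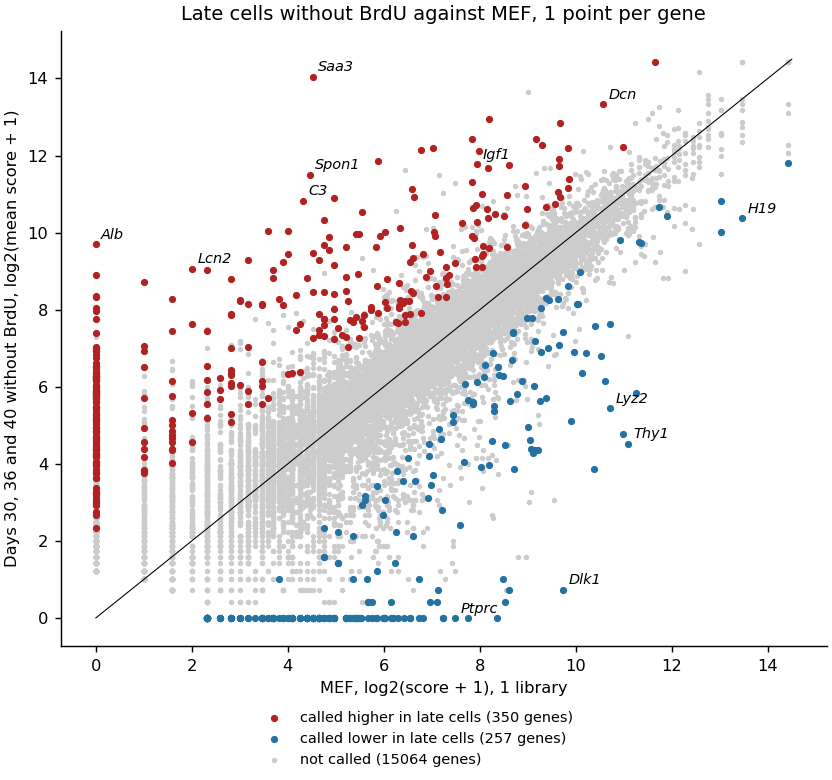
Mean score on days 30, 36 and 40 without BrdU (vertical) against the MEF score (horizontal), each as log2 of the score plus 1, 1 point per tested gene, with called genes coloured. Most of the 15671 genes lie along the diagonal; Alb, Saa3 and C3 lie far above it, and Dlk1, Thy1 and Ptprc far below it.

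Acute-phase and complement genes were the list with the most called rises. Acute-phase proteins are secreted in inflammation, mostly by liver but also by stromal cells, and complement proteins tag and lyse microbes. Of 19 listed genes 16 were tested, 13 were called higher (2.23% of all genes were), none was called lower, and 14 were at least 2-fold higher on every late day (8.43% of all genes were). Their median log2 difference was 4.61, against 0.01 over all genes tested. The count called higher was 13 with the spread pooled in either way, 7 without day 30, and 0 without day 36 or day 40. The summed score of the 17 members in the table was 36415, 52935 and 54498 on days 30, 36 and 40, against 1793 in MEF, and was 2910 to 3206 on the late days with all chemicals.

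Saa3, an acute-phase apolipoprotein, had 6875, 21988 and 21988 on days 30, 36 and 40, against 22 in MEF. The 2 later days are at the ceiling, so the log2 difference of 9.34 ± 0.89 is a lower limit. Its increase from day 30 to day 36 made up most of the increase in the summed score of the list between those days. In mm10 the gene lies on chromosome 7 from 46711998 to 46715700. C3, the central complement component, had 2414, 1468 and 1554, against 19 in MEF (6.47 ± 0.37). Lcn2, which binds bacterial iron carriers, had 380, 638 and 580, against 3 in MEF (7.03 ± 0.38). All 3 genes were above MEF from day 6 on, C3 at 365 to 573 and Lcn2 at 200 to 674 over days 6 to 22. Saa3 varied more over those days, between 354 on day 22 and 2768 on day 12.

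The 250 bases before the RefSeq start site are shown for these 3 genes because each stood above MEF on every late day and holds the letters TTGCNNAA, a core recognised by C/EBP factors. The search covered both strands, and capitals mark the match. The sequences are RefSeq's on GRCm38.p6, all read on the minus strand, 5′ to 3′, at chr7:46715677-46715926 for Saa3, chr2:32387740-32387989 for Lcn2 and chr17:57228137-57228386 for C3.
Saa3: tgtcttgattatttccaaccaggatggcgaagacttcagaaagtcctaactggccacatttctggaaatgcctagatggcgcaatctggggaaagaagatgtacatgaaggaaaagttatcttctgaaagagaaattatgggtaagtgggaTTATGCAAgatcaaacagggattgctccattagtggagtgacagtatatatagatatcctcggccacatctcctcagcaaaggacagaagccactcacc
Lcn2: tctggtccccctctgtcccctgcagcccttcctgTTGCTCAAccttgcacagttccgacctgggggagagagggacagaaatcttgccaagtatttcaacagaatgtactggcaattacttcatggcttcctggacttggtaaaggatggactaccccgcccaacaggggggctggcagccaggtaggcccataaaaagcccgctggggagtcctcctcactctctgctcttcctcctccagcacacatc
C3: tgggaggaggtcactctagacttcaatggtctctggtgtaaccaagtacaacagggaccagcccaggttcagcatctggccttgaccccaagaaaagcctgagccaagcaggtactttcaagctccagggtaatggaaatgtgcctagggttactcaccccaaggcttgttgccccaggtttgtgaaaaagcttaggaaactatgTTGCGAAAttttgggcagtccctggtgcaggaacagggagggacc
The match in C3 begins 45 bases before the start, that in Saa3 99 bases and that in Lcn2 216 bases. Of the 13 called genes 7 had a promoter in the table, and 6 of these held the motif (C1s1, C3, Cp, Lcn2, Saa3 and Steap4), as did 9.56% of the 32851 promoters of the table. The motif was chosen with the genes known, and a match is a description of letters only. Cebpb, which encodes a factor of that family, had 760, 1318 and 1104 in late cells, against 411 in MEF, and was not called. It was chosen after its values were seen, and whether it acts at these genes was not tested.

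Other secreted plasma proteins were called higher too. The C1 inhibitor Serping1 had 6869, 8316 and 8316, against 290 in MEF (4.75 ± 0.18), and the complement protease C1s1 had 4968, 3846 and 4508, against 252 (4.13 ± 0.20). Equal scores on several days reflect the shared score distribution, in which a rank has a fixed value. Lbp, which binds bacterial lipopolysaccharide, had 874, 1006 and 1304, against 11 in MEF (6.45 ± 0.28). The protease inhibitor A2m had 706, 555 and 598, against 24 (4.63 ± 0.19).

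Alb, which encodes serum albumin, was listed at 0 in MEF, so its place among the rises beside Saa3, which is at the ceiling on 2 days, cannot be ranked. It had 884, 878 and 741 on days 30, 36 and 40. In the same course it had 38 on day 6, 75 on day 12 and 653 on day 22, while the late days with all chemicals had 38, 52 and 82. Trf, the iron carrier transferrin, had 2038, 1717 and 1989, against 30 in MEF (5.95 ± 0.15). The extraembryonic endoderm list also holds 3 liver and yolk sac genes that were low in both groups and not called, namely Afp, which had 0, 5 and 0 in late cells and 0 in MEF, Ttr, which had 3, 0 and 6 against 1, and Hnf4a, which had 4, 1 and 1 against 1. Of the 19 tested members of that list, 2 were called higher (Trf and Lama1), against 2.23% of all genes. Dab2 was the 1 called lower (1.64% of all genes were). On every late day 7 were at least 2-fold higher (8.43% of all genes were). Its median log2 difference was 0.86, and no member was called higher with the spread of days 6 to 22.

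The remaining large rises were of mixed kinds. Cfi, a complement-cleaving protease, had 226, 323 and 408 and was listed at 0 in MEF, and Crp, an acute-phase protein, had 80, 118 and 193 and was also listed at 0 in MEF. Spon1, a matrix protein, had 2762, 2280 and 3633, against 21 in MEF (7.01 ± 0.32), and had stood at 226 to 494 over days 6 to 22. Wfdc2, a secreted protease inhibitor of epithelia, had 284, 573 and 395, against 1 in MEF (7.65 ± 0.48). Tspan8, a membrane tetraspanin, had 478, 560 and 394, the tight junction proteins Cldn4 and Cldn11 had 195 to 301 and 94 to 184, and the amino acid transporter Slc36a2 had 161 to 172; all 4 were listed at 0 in MEF. Rtn4rl2, Tmem255a, Ptprr and Grm8, with 118 to 404 across the late days, complete the 15 called genes with the largest fitted rises, and were listed at 0 in MEF too. All 8 of these last genes had been above 0 on each of days 6 to 22.

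**Figure D3:**
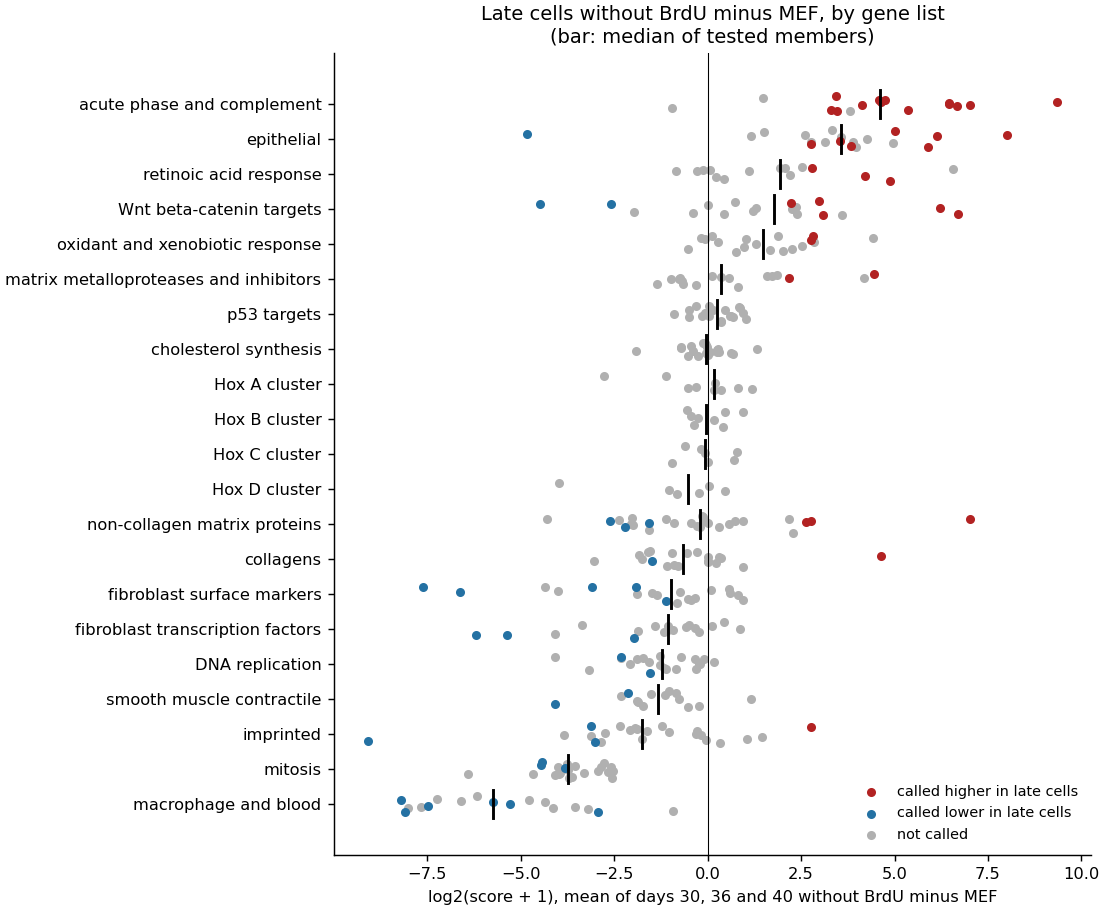
Log2 difference between late cells without BrdU and MEF for each tested member of 21 gene lists, with called genes coloured and the median of each list as a bar. Acute-phase and complement genes have a median of 4.61, mitosis genes -3.74 and macrophage and blood genes -5.74, while the medians of the Hox lists lie between -0.52 and 0.16.

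Epithelial genes stood above MEF at low levels. Of 19 tested, 7 were called higher (2.23% of all genes were) and 1 lower (1.64% of all genes were). On every late day 17 were at least 2-fold higher (8.43% of all genes were), and the median log2 difference was 3.56. Krt8, a keratin of simple epithelia, had 216, 291 and 182, against 6 in MEF (5.01 ± 0.34). Epcam, an epithelial adhesion protein, had 82, 68 and 62, against 4 (3.83 ± 0.28). Cdh1, the epithelial cadherin, had 160, 74 and 66, against 2 in MEF, and was not called. The summed score of the 20 members in the table was 2583, 1911 and 1352 on the 3 late days, against 14203 on day 22 and 730 in MEF, and was 13314 to 17296 on the late days with all chemicals. The count called higher was 10 with the spread pooled with late full-course and CiPSC libraries, and 0 with that of days 6 to 22. Cdh3, placental cadherin, went the other way, with 28, 18 and 13, against 564 in MEF (-4.84 ± 0.52). It made up most of the MEF sum of 730, so the sums understate the rise of the other members.

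Some retinoic acid response genes were called higher. Retinoic acid acts through nuclear receptors that switch on its own receptor and degrading enzymes. Of 15 tested, 3 were called higher (2.23% of all genes were), none lower, and 8 were at least 2-fold higher on every late day (8.43% of all genes were), with a median log2 difference of 1.94. The count called higher was 7 of 13 tested with a mean of at least 20, 6 with the spread of days 6 to 22 and 2 with that of late full-course and CiPSC libraries or with no filter. Rarb, a retinoic acid receptor, had 316, 259 and 252, against 14 in MEF (4.20 ± 0.21). Cyp26b1, which breaks retinoic acid down, had 1016, 526 and 592, against 22 (4.89 ± 0.47). Dhrs3, which reduces retinaldehyde, had 1682, 1712 and 1682, against 242 (2.80 ± 0.09). Cyp26b1 had stood between 2167 and 3846 and Rarb between 547 and 849 over days 6 to 22, so both late levels lay between those days and MEF. On the late days with all chemicals Rarb had 19, 17 and 20.

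The 250 bases before the Rarb start are shown because this window holds the direct repeat for which that promoter is known (RefSeq, GRCm38.p6, minus strand, chr14:16575477-16575726, 5′ to 3′). Capitals mark the letters GTTCA followed, 5 bases on, by AGTTCA, searched on both strands.
Rarb: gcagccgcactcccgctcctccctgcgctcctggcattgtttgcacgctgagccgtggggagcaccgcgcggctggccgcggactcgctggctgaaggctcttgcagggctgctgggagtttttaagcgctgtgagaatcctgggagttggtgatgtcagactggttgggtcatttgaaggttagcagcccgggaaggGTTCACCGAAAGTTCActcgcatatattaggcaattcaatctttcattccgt
The match begins 52 bases before the start. Among the 3 called genes, all with a promoter in the table, only Rarb held it, and 9 of the 32851 promoters did (0.0274%).

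Targets of Wnt and beta-catenin signalling moved both ways. Of 18 tested, 5 were called higher (2.23% of all genes were) and 2 lower (1.64% of all genes were). On every late day 9 were at least 2-fold higher (8.43% of all genes were) and 3 at least 2-fold lower (7.26%). Lef1, a transcription factor of the pathway, had 79, 78 and 64, and Notum, an enzyme that inactivates Wnt proteins, had 180, 74 and 80; both were listed at 0 in MEF. Nkd1, a feedback inhibitor, had 317, 286 and 298, against 37 in MEF (2.99 ± 0.14). Notum had been at 612 to 1103 and Lef1 at 179 to 524 over days 6 to 22, above their late levels. Ccnd1, cyclin D1, a cell cycle regulator that other pathways also control, had 88, 56 and 66, against 1554 in MEF (-4.48 ± 0.32).

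Matrix genes were called in both directions. Among 27 non-collagen matrix proteins 3 were called higher (2.23% of all genes were) and 3 lower (1.64% of all genes were), with a median log2 difference of -0.21. On every late day 9 were at least 2-fold lower (7.26% of all genes were) and 5 at least 2-fold higher (8.43%). Dcn, decorin, a small proteoglycan that binds collagen fibrils, had 8336, 11346 and 11346, against 1517 in MEF (2.75 ± 0.26). Mfap5, a microfibril protein, had 1192, 1441 and 1038, against 196 (2.62 ± 0.23), and had been at 60 to 150 over days 6 to 22. Lower were Thbs1, thrombospondin, with 3638, 3426 and 3638, against the ceiling of 21988 in MEF, tenascin Tnc with 1840, 1921 and 1618, against 8326 (-2.22 ± 0.15), and the crosslinking enzyme Loxl1 with 899, 854 and 832, against 2542 (-1.56 ± 0.11). The Thbs1 difference of -2.62 ± 0.12 is a limit, since MEF may lie above the ceiling.

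Among 20 collagens 1 was called higher (2.23% of all genes were) and 1 lower (1.64% of all genes were). On every late day 5 were at least 2-fold lower (7.26% of all genes were) and 1 at least 2-fold higher (8.43%). The median log2 difference was -0.66. With a mean of at least 20, 2 were called higher and 6 lower. Col15a1, a basement membrane collagen, had 964, 542 and 720, against 28 in MEF (4.64 ± 0.39). Col4a2, of the type IV network, had 1406, 1240 and 1490, against 3842 (-1.48 ± 0.16). Of 17 metalloproteases and inhibitors 2 were called higher (2.23% of all genes were) and none lower. They were Adamts2, which trims procollagen, with 1345, 1410 and 1557, against 319 (2.17 ± 0.13), and Timp4, an inhibitor, with 16, 26 and 22 and listed at 0 in MEF.

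Some surface proteins of fibroblasts were called lower in late cells. Of 20 fibroblast surface markers 5 were called lower (1.64% of all genes were) and none higher. On every late day 8 were at least 2-fold lower (7.26% of all genes were), while 3 were above MEF on each (30.7% of all genes were). Thy1, a standard fibroblast surface marker, had 28, 14 and 24, against 2167 in MEF (-6.61 ± 0.48). It had been at 907 to 1441 over days 6 to 22, so its low level was a feature of the late days, and it had 176, 269 and 255 on the late days with all chemicals. The gene lies on chromosome 9 from 44043384 to 44048579 in mm10. Cspg4, a proteoglycan of pericytes and progenitors, had 2, 1 and 0, against 358 in MEF, and 1 to 4 on days 6 to 22 already. The adhesion proteins Vcam1 (98, 140 and 116, against 1002) and Cdh2 (287, 288 and 267, against 1058) were also called lower. Pdgfra had 1920, 942 and 1290, against 692 in MEF, and Cd44 had 84, 294 and 96, against 2174; neither was called.

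Of 18 fibroblast transcription factors 3 were called lower (1.64% of all genes were) and none higher, with a median log2 difference of -1.07. Meox2 and Ebf2 were listed at 0 on all late days, with 72 and 40 in MEF, and Tbx15 had 94, 104 and 112, against 405 in MEF (-1.96 ± 0.17). Contractile genes were lower than in MEF in part. Acta2, smooth muscle actin, had 2419, 4208 and 8314 on days 30, 36 and 40, after 324 to 398 on days 12 to 22, against 21988 in MEF, and was not called. Cnn1, calponin, had 22, 32 and 36, against 510 in MEF (-4.07 ± 0.37). Of 14 contractile genes 2 were called lower (1.64% of all genes were) and none higher. On every late day 8 were at least 2-fold lower (7.26% of all genes were).

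Hox genes, which record position along the body axis, were near their MEF scores. None of the 30 tested in the 4 clusters was called by limma, and list medians ran from -0.52 (cluster D) to 0.16 (cluster A). Hoxc6, for example, had 270, 216 and 274, against 264 in MEF, and Hoxb9 had 350, 293 and 396, against 260. Hoxd13 and Hoxa7 stood apart, with 12, 12 and 6 against 166 in MEF for Hoxd13, and 7, 6 and 9 against 55 for Hoxa7. Both were called lower with a pseudocount of 5, Hoxa7 also with no trend, and Hoxd13 also with a mean of at least 20 and with the spread of days 6 to 22. These were the only Hox genes tested that were at least 2-fold away on every late day, and 15.7% of all genes were. None was called by limma in cholesterol synthesis (21 tested), glycolysis (20), p53 targets (20), interferon response (21) or Polycomb enzymes (18) either, where medians lay between -0.32 and 0.25. Other settings called up to 1 glycolysis gene in each direction and 1 p53 target higher. A gene that was not called is not thereby shown to be equal.

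Imprinted genes are expressed from 1 parental copy in at least some tissues. They were called lower in 3 of 23 cases (1.64% of all genes were) and higher in 1 (2.23% of all genes were), which was Dcn, described above. The call of Dcn was lost with no filter and with the spread of late full-course and CiPSC libraries. On every late day 12 imprinted genes were at least 2-fold lower (7.26% of all genes were). Dlk1, a membrane protein of fetal tissues, had 1, 1 and 0, against 854 in MEF (-9.07 ± 0.58), and had been at 99 on day 22. It lies on chromosome 12 from 109452823 to 109463336 in mm10. H19, a non-coding RNA, had 1684, 1256 and 1048, against 11331 in MEF (-3.12 ± 0.33), and its neighbour Igf2, a fetal growth factor, had 1302, 879 and 932, against 8314 (-3.02 ± 0.29). The calls of H19 and Igf2 were lost with no filter, with no trend and with the spread of late full-course and CiPSC libraries. Both were at 4506 or above on each of days 6 to 22, and H19 was at the ceiling on the late days with all chemicals.

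Igf1, the growth factor that serves mainly after birth, went the other way, with 4516, 2917 and 3101, against 246 in MEF (3.80 ± 0.32). Its binding protein Igfbp4 had 3082, 3414 and 3628, against 798 (2.08 ± 0.15), and Pappa, a protease that cleaves it, had 160, 130 and 144, against 564 (-1.96 ± 0.18). Hmga2, a chromatin protein of fetal and dividing cells chosen after its values were seen, had 24, 30 and 25, against 2036 in MEF (-6.23 ± 0.22), and had been at 530 to 1319 over days 6 to 22.

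**Figure D4:**
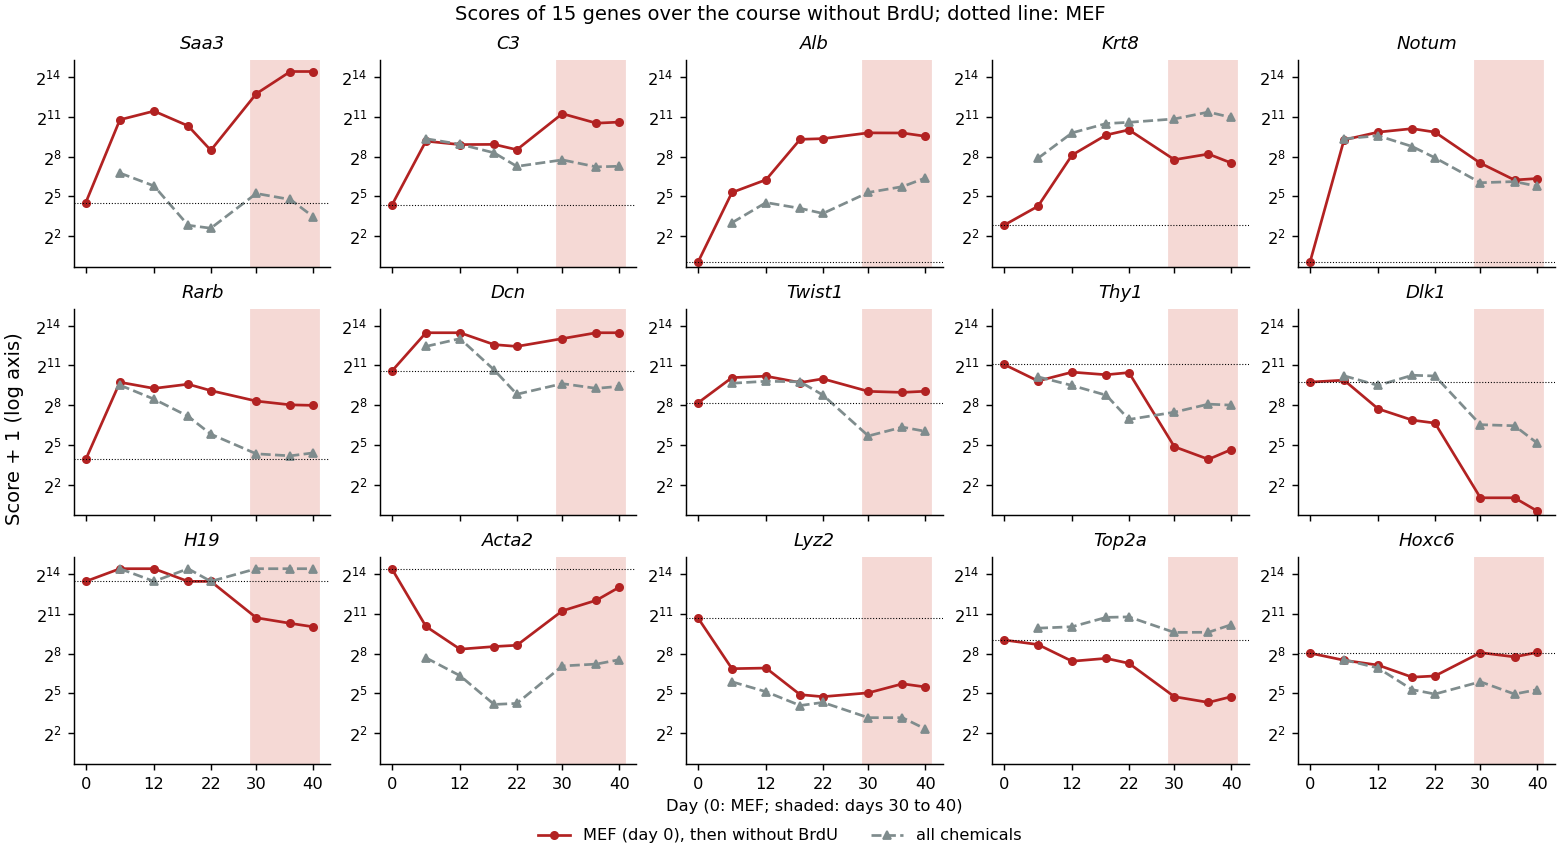
Scores (log axis) of 15 genes in MEF and over the course without BrdU, with the course with all chemicals as a dashed line, the MEF score as a dotted line and days 30 to 40 shaded. Thy1, Dlk1 and H19 are lowest on the shaded days, Saa3 and Alb are far above MEF there, and Twist1 and Hoxc6 lie near the MEF line.

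Genes of cell division stood below MEF in late cells. All 23 mitosis genes were at least 2-fold lower than MEF on every late day (7.26% of all genes were), with a median log2 difference of -3.74. Only 3 were called lower in the fit of 4 libraries (1.64% of all genes were). The count was 17 with the spread pooled with days 6 to 22 and 21 with that of late full-course and CiPSC libraries. Top2a, which untangles DNA before division, had 26, 19 and 26, against 526 in MEF (-4.43 ± 0.30), and the mitotic cyclin Ccnb1 had 4, 6 and 8, against 148 (-4.45 ± 0.46). The proliferation marker Mki67 had 13, 1 and 7, against 520 in MEF, and was not called. The summed score of the 23 was 276, 271 and 358, against 3672 in MEF, after 2804 on day 6 and 1178 on day 22.

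DNA replication genes followed in part. Of 22, 2 were called lower (1.64% of all genes were) and 9 were at least 2-fold lower on every late day (7.26% of all genes were). The median log2 difference was -1.22. Mcm6, a subunit of the replicative helicase, had 42, 51 and 44, against 232 in MEF (-2.32 ± 0.21). Rrm2, which makes deoxynucleotides, had 96, 86 and 97, against 274 (-1.55 ± 0.16). Of 8 inhibitors of cyclin-dependent kinases none was called in either direction, and the median log2 difference was -0.34. On every late day 3 lay above MEF (30.7% of all genes did) and 3 below it (30.6%). At least 2-fold away on every late day were 1 higher and 1 lower. Among those above MEF, Cdkn2a had 1321, 2769 and 1718, against 632 in MEF, and Cdkn1a had 2631, 2215 and 2631, against 1650.

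Markers of macrophages were present in MEF and nearly absent from late cells. Of 17 tested, all lay below MEF on every late day (30.6% of all genes did, and 30.7% lay above it). On each late day 16 were at least 2-fold lower (7.26% of all genes were), and 6 were called lower (1.64% of all genes were). The median log2 difference was -5.74. The called count was 14 with the spread pooled with days 6 to 22 and 16 with that of late full-course and CiPSC libraries. Lyz2, lysozyme, had 32, 52 and 44, against 1686 in MEF (-5.30 ± 0.35). Ptprc, the leukocyte surface protein CD45, was listed at 0 on all late days, with 178 in MEF, and Spi1, a myeloid transcription factor, had 1 on each, against 106. The summed score of the 17 markers was 272, 436 and 422, against 6514 in MEF, and was 504 already on day 6. In bulk RNA, fewer cells of a type and less RNA per cell cannot be told apart.

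Of the 15 largest called falls of all genes, 3 are in that list (Laptm5, C1qc and Ptprc). Cd83, Nlrp3, Clec4e, Clec4d, Fcgr2b, Myo1f, Pld4 and Ccl4, with 93 to 326 in MEF and 0 or 1 on the late days, are known from immune cells but were in no list. Cd83 and Clec4d were still at 34 to 50 and 38 to 68 over days 6 to 22, while Ptprc was at 0 on days 6, 12 and 18. Dlk1, Cspg4, Thy1 and Depdc1a, a gene linked to cell division with 112 in MEF, make up the rest. How far the macrophage share of the MEF culture bears on other differences from MEF was not tested.

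Markers of other cell types were called in some cases (3.87% of all genes were called). Of 10 tested endothelial genes 1 was called lower (Flt1 with 42, 55 and 48, against 395 in MEF) and 1 higher (Cdh5 with 56, 42 and 62, against 2), and the summed score of the 11 in the table was 121, 200 and 179, against 606 in MEF. Among skeletal and cardiac muscle genes 2 of 9 were called lower, with Acta1 at 5, 5 and 3, against 190. Of 9 adipocyte genes Lpl, a lipoprotein lipase, was called higher, with 1588, 1448 and 1620, against 281 (2.46 ± 0.12), while Adipoq had 6, 5 and 3 and was listed at 0 in MEF. At least 2-fold lower on every late day (7.26% of all genes were) were 4 of the 10 endothelial and 4 of 11 cartilage and bone genes. So were 3 of 9 mesothelial, 3 of 10 neural, 2 of 8 trophoblast and 2 of the 9 muscle genes. At least 2-fold higher on every late day (8.43% of all genes were) were 4 of the 9 adipocyte and 3 of the 10 neural genes. So were 2 cartilage and bone, 2 trophoblast, 1 mesothelial and 1 endothelial gene. None of the 11 cartilage and bone, 9 mesothelial or 8 trophoblast genes was called by limma, although other settings called up to 1 in each direction in the first 2 lists and 1 trophoblast gene lower, and of 10 neural genes Foxd3 was called lower (listed at 0 on all late days, with 8 in MEF).

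Of 16 BMP and Id genes 2 were called higher (2.23% of all genes were), the ligand Bmp6 (32, 32 and 34, against 6) and the ligand Bmp7 (17, 13 and 22, listed at 0 in MEF); neither was called with a pseudocount of 5 or with no filter. Fos, an AP-1 factor, had 6861, 4201 and 5522, against 578 in MEF (3.23 ± 0.34). It was the only called member among 17 AP-1, TEAD and RUNX genes (2.23% of all genes were called higher). On every late day 1 of the 17 was at least 2-fold higher (8.43% of all genes were) and 3 were at least 2-fold lower (7.26%). Fos was not called with no filter, with no trend or with the spread of late full-course and CiPSC libraries. The detoxifying enzymes Gstm1 (750, 1136 and 1002, against 134) and Mgst1 (1346, 1718 and 1686, against 232) were called higher among 18 oxidant and xenobiotic response genes (2.23% of all genes were). Of these 18, 9 were at least 2-fold higher on every late day (8.43% of all genes were). Gstm1 belongs to a family of close copies whose reads can be shared. Among 16 TGF-beta targets Tgfbi (135, 137 and 108, against 682) and Tgfb3 (319, 260 and 268, against 1036) were called lower (1.64% of all genes were). On every late day 6 of the 16 were at least 2-fold lower (7.26% of all genes were) and none was at least 2-fold higher. Etv4, a target of ERK signalling, was listed at 0 on all late days, with 62 in MEF. It was the only called member of 15 ERK feedback genes (1.64% of all genes were called lower). On every late day 2 of the 15 were at least 2-fold higher (8.43% of all genes were) and 2 at least 2-fold lower (7.26%). The chemokine Ccl8 had 366, 603 and 392, against 20 in MEF (4.40 ± 0.37). It was the only called member of 19 inflammatory secretion genes (2.23% of all genes were called higher). On every late day 3 of the 19 were at least 2-fold higher (8.43% of all genes were) and 2 at least 2-fold lower (7.26%). A single called member says little about its list.

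Some secreted and AP-1 genes varied over the late days, here shown by 3 genes chosen after their values were seen. Il6, an inflammatory cytokine, had 36, 684 and 164 on days 30, 36 and 40, against 64 in MEF, and Cxcl1, a chemokine, had 655, 3420 and 1875, against 500. Fosl1, an AP-1 factor, had 8, 162 and 20, against 95. All 3 were highest on day 36 and none was called by limma (adjusted p = 0.755, 0.493 and 0.704). Among genes with a late mean of at least 50, the 5 with the widest range over the late days were Tom1, Syn3, Gm26883, Gm20431 and Gm10718, each of which was listed at 0 on 1 late day and reached 97 to 228 on another.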

How the data were processed

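The 26 libraries were sequenced on a NextSeq 500 after TruSeq preparation of total RNA, per the labels' protocols. Per the submitters' processing notes, RSEM, Bowtie2 and bcl2fastq were used with mm10, and versions, annotation, strand setting and filters are not given in the sources used here. The authors deposited 1 table of 16718 genes, whose values are treated as a score. Its name says CPM, but every column has nearly the same quantiles, so the deposited scores were quantile-normalized and rounded, a change in total RNA cannot be seen, and no interval or floor from counts can be given. Such scaling favours a balance of rises and falls. There are 3 duplicated gene names.

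Scores were analysed as log2(score + 1) in R 4.3.3 with limma 3.58.1 (intensity trend, two-sided), keeping genes whose mean score over the 3 late libraries and MEF reached 1. The residual spread comes from the 3 late days. Days 30, 36 and 40 share no day with MEF, so no pairing exists. The fit was tested on simulated data. Coordinates are from GENCODE M21 and promoters from RefSeq (GRCm38.p6).

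The 44 gene lists and the tests were chosen with earlier results of these data known, so lists are described by counts and medians beside those of all genes, with no set test. Genes named are the 15 largest called rises and falls (mean of at least 50 in the higher group), up to 5 called members of a list with the smallest p and 2 in the other direction, members on which a statement turns, and the 5 genes with the widest range over late days. Members named as uncalled examples, and values on other days, were chosen after they were seen. List members that the table lacks were not analysed here. The values of 1 called gene are not reported here.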

Additional observations from a re-analysis of the deposited data

How the results depend on the processing

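The main count of 607 called genes (350 higher, 257 lower) was within 1.5 times under a pseudocount of 5, no filter, a mean of at least 20 and no trend, except that the mean of at least 20 gave 530 higher. Centring on the median of expressed genes shifted no library. The spread pooled with late full-course and CiPSC libraries gave 1186 calls (592 higher, 594 lower) and that pooled with days 6 to 22 gave 1001 (559 higher, 442 lower); 393 and 421 of these genes were among the 607. The fold rule without a test gave 2458 genes (1321 higher, 1137 lower). Leaving out 1 late day gave 0 to 308 calls, 0 to 59 of them higher and 0 to 249 lower; with 2 late days the fit has a single residual degree of freedom. MEF has 1 library and could not be left out. The mean Spearman correlation of the late days with MEF was 0.906, and 0.882 among genes with a mean of at least 20; the cause was not tested. Of 137 named genes, 24 lost their call with no filter, 34 with the spread of late full-course and CiPSC libraries and 19 with that of days 6 to 22, all keeping their sign. Signs turned, among these 137, for uncalled Pou5f1 without day 40 (-0.18), Syn3 without day 36 (-1.57) or day 40 (-0.25), Gm26883 without day 36 (0.77) and Hoxc6 without day 36 (0.043), and differences came to 0 for Hnf4a without day 30 and Ttr without day 40. No paired analysis was possible because MEF has 1 library and shares no day with the course.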
